A study of Mus musculus with 5 samples.

Results

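The G1 cyclins, the kinases they activate and the retinoblastoma (Rb) proteins were followed as 10 genes chosen by symbol: Ccnd1, Ccnd2, Ccnd3, Ccne1, Ccne2, Cdk2, Cdk4, Cdk6, Rb1 and Rbl2. All 10 were found among the 33894 named genes of the deposited tables, and all 10 passed the filter on low counts with 13696 genes in all. Expression was measured by bulk RNA sequencing of haematopoietic stem cells sorted from the bone marrow of mice aged 8 weeks, by the absence of lineage proteins, CD34 and Flt3 and the presence of Sca1 with high c-Kit. The 2 wild type (WT) libraries carry no transgene in their labels. The 3 double-deficient (dKO) libraries carry Vav-cre, Lrp6 fl/fl and Lrp5 fl/fl, that is, floxed copies of both Wnt co-receptor genes and a Cre driven by the Vav promoter, which is active across blood cells. Cre is named in the dKO group alone, so its own effect cannot be told apart from that of the floxed genes. Whether the libraries stem from single mice, from separate pools or from repeats of the same mouse or pool is not stated. In the last case the spread behind each p-value would be technical.

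Cells pass from G1 into S phase when cyclin D with Cdk4 or Cdk6, and then cyclin E with Cdk2, phosphorylate the Rb family proteins. Unphosphorylated Rb proteins hold back the E2f transcription factors, whose targets include genes of DNA replication and the E cyclins. Adult haematopoietic stem cells are mostly quiescent, and a low level of Cdk6 protein is known to mark the most dormant of them.

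Library totals ran from 16028512 to 28027458 counts, the lowest being dKO replicate 2, which also stood apart from the others (highest correlation with another library 0.851, against 0.906 or more for the other 4). Of the targeted genes Lrp6 was counted 232 and 660 times in the WT libraries and 260 to 790 times in those labelled dKO, and Lrp5 2 to 71 times over all 5, so their whole-gene counts did not check the labels, and directions below rest on the labels alone. The 14 stem cell markers were detected in every library. Their summed level was 1968 and 1322 CPM (counts scaled to library size by TMM) in WT and 2614 to 2689 CPM in dKO. Transcripts of Cd34 and Flt3, whose proteins the sort excluded, were present in every library. Cd34 measured 1211 and 760 CPM in WT and 945, 968 and 1085 CPM in dKO replicates 1, 2 and 3. Flt3 measured 238 and 116 CPM in WT and 338, 300 and 359 CPM in dKO, above WT in every dKO library. Granulocyte progenitor markers, 10 genes, summed to 44599 CPM in WT replicate 2 and to between 7157 and 17170 CPM in the other 4 libraries. The sum of the 12 erythroid and megakaryocyte markers was 172 to 179 CPM in WT and 289 to 297 CPM in dKO. Mast cell and basophil markers summed to 192 and 404 CPM in WT and 320, 997 and 466 CPM in dKO replicates 1, 2 and 3, which overlap. Of the 7 markers 6 were singly higher in dKO with an unadjusted p under 0.05, where 4.94% of all tested genes were. Among these, Cma1 and Tpsb2 had 1 count in each WT library, so they passed the filter on low counts through dKO libraries alone. Tpsb2 had 2, 488 and 146 counts in dKO replicates 1, 2 and 3. Dendritic cell and macrophage markers also separated the groups, with sums of 384 and 340 CPM in WT and 479, 522 and 878 CPM in dKO replicates 1, 2 and 3. Most of each sum came from the MHC class II genes H2-Aa and H2-Ab1 and from Cd74. Of the 10 markers 8 were higher, 3 of them (H2-Aa, Cd74 and C1qb) with an unadjusted p under 0.05. The macrophage markers Cd68 (log2 fold change -0.42) and Emr1 (-0.57) were lower. The lymphoid sum overlapped (944 and 2047 CPM in WT, 742 to 1134 CPM in dKO). Most of it was Nkg7, at 704 and 1880 CPM in WT and 561, 676 and 671 CPM in dKO replicates 1, 2 and 3. Nkg7 was lower in dKO (log2 fold change -1.02, unadjusted p = 0.0229 by edgeR), as was the B lineage gene Cd79b (-0.08). The other 9 of 11 tested lymphoid markers were higher, and the median log2 fold change of the 11 was 1.44. Of these 9, the B lineage genes Ebf1 (3.99), Cd79a (2.09) and Vpreb1 (1.86) had an unadjusted p under 0.05. Cd3e had no count in any library, but Cd3g had 178 counts in dKO replicate 2. The stromal markers Bglap, Lepr and Pdgfra were also without a count. Of 6 tested stromal markers 4 were higher in dKO and 2 lower, with a median log2 fold change of 2.71. Cxcl12 alone had an unadjusted p under 0.05 by edgeR (log2 fold change 3.91). WT replicates 1 and 2 held 3 and 25 of its reads, whereas dKO replicates 1, 2 and 3 held 248, 246 and 38. Pecam1, most of the stromal sum, was lower (-0.31).

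Levels of different genes were compared in the deposited TPM, which are scaled to transcript length. Cdk6 and Cdk4 were the most abundant of the 10, with median TPM over the 5 libraries of 588 and 528, above 98.2% and 98.0% of the tested genes. Ccnd3 (median 174 TPM), Cdk2 (133 TPM) and Ccnd2 (116 TPM) followed. Rbl2 (28.9 TPM), Ccne1 (17.3 TPM), Ccne2 (14.95 TPM), Ccnd1 (10.7 TPM) and Rb1 (10.2 TPM) formed the low end. The steps from Cdk4 to Ccnd3 and from Ccnd2 to Rbl2 were the only ones between neighbours in this order at which the ranges of the 5 libraries did not overlap. Cdk6 exceeded Cdk4 in 2 of 5 libraries, Ccnd3 exceeded Cdk2 in 3 of 5, and Cdk2 exceeded Ccnd2 in 2 of 5. Rbl2 exceeded Ccne1 in 3 of 5, Ccne1 exceeded Ccne2 in 2 of 5, and Ccnd1 exceeded Rb1 in 3 of 5. The order within all of those pairs was thus not fixed.

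**Figure D1:**
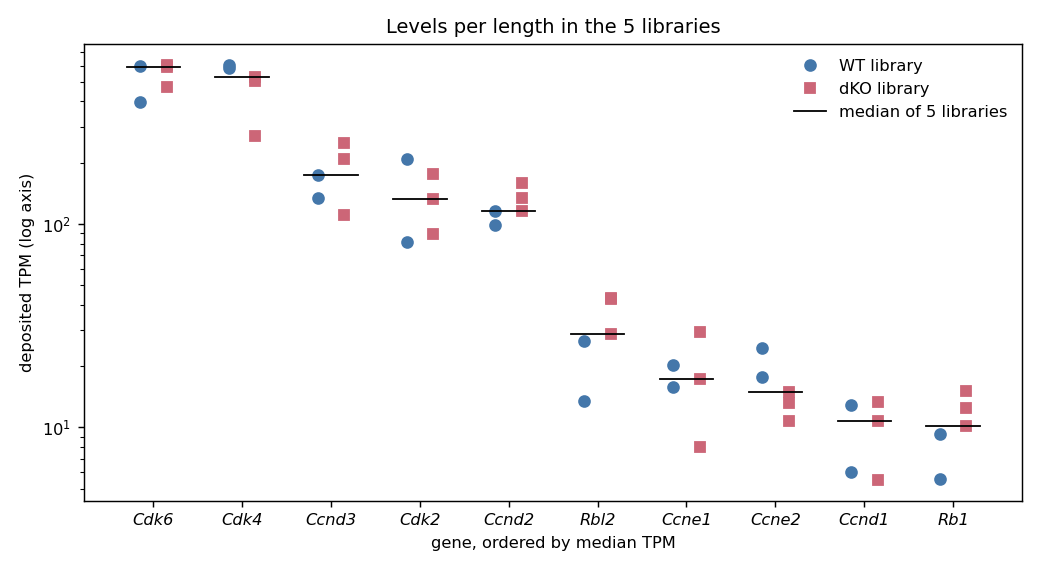
Deposited TPM (log axis) of the 10 genes, ordered by their median, with 1 point per library (circles WT, squares dKO) and a line at the median of the 5 libraries. Cdk6 and Cdk4 lie above all others, and Rbl2, the E cyclins, Ccnd1 and Rb1 lie below the D cyclins Ccnd2 and Ccnd3.

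No member passed the adjusted threshold of 0.05 between dKO and WT in the quasi-likelihood test of edgeR (Benjamini-Hochberg adjusted), nor did any other gene: 0 of 13696 were called higher and 0 lower (0% of genes in each direction). The 2 members with the smallest p were Cdk4, lower in dKO, and Rbl2, higher. Of the 10 members, 1 had an unadjusted p under 0.05 with a higher value, where 4.94% of all tested genes did, and 1 with a lower value, where 5.19% did. Every dKO library lay above both WT libraries for 2 members (Ccnd2 and Rbl2) and below both for 3 (Ccne2, Cdk2 and Cdk4), where 13.7% and 15.6% of all tested genes did so. The median log2 fold change of the members was 0.02 and that of all tested genes 0.04, with 5 members above and 5 below 0. DESeq2, which called 162 genes higher and 92 lower, called 1 member, Cdk4. With limma-voom 0 members were called. On simulated data the edgeR test recovered only 3.4% of 2-fold changes, so a lack of calls is no evidence of unchanged genes. In bulk samples fewer cells of a type and less RNA per cell cannot be told apart, and this holds for every difference below.

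**Figure D2:**
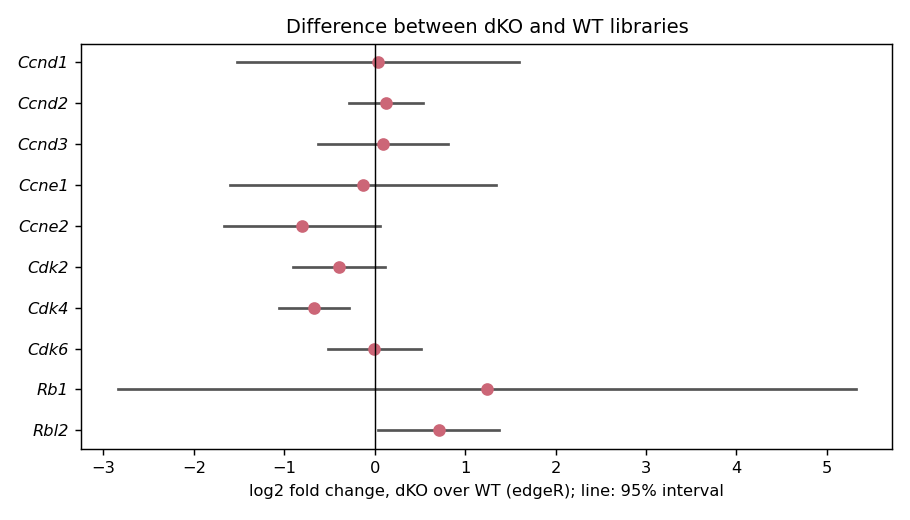
Log2 fold change of dKO over WT (points) with its 95% interval (lines) from edgeR for the 10 genes. The intervals of Cdk4 and Rbl2 exclude 0 before adjustment, and the widest is that of Rb1, from -2.84 to 5.32.

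The D cyclins bind Cdk4 and Cdk6 and connect growth signals to the cell cycle. Ccnd2 measured 445 and 441 CPM in the WT libraries and 455, 542 and 450 CPM in dKO replicates 1, 2 and 3. The groups did not overlap, but dKO replicates 1 and 3 lay only just above WT. Its log2 fold change was 0.12 (SE 0.18, adjusted p = 0.896 by edgeR), with a 95% interval of -0.29 to 0.53, and was 0.035 without dKO replicate 2. Its highest library exceeded its lowest 1.23 times, the smallest such ratio of the 9 members counted in every library. Ccnd3 measured 181 and 162 CPM in WT and 199, 238 and 112 CPM in dKO replicates 1, 2 and 3, a log2 fold change of 0.09 (SE 0.31). The groups overlapped because dKO replicate 3 was the lowest of all libraries. Ccnd1, a D cyclin that is a known Wnt target in other tissues, was low beside Ccnd2 and Ccnd3. Its median of 10.7 TPM lay above 45.7% of the tested genes. It had 411 and 216 counts in WT, against 143, 306 and 369 counts in dKO replicates 1, 2 and 3. These counts are 15.6 and 8.65 CPM in WT and 5.27, 18.5 and 13.7 CPM in dKO, with both the highest and the lowest library in the dKO group. Its log2 fold change was 0.04 with an interval of -1.52 to 1.60, so a change of 2-fold in either direction was not detectable here.

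Within the D cyclins Ccnd3 held the largest share of the TPM in 4 of the 5 libraries and Ccnd2 did in dKO replicate 3. Ccnd2 made up 39.8 ± 2.16% of D cyclin TPM in WT (SD, n = 2) and 41.6 ± 6.25% in dKO (SD, n = 3), a difference of 1.77 percentage points (exact permutation test, two-sided, p = 0.900). With 2 against 3 libraries there are 10 assignments, and the smallest p this test can give is 0.1. Without dKO replicate 3 the difference was -1.83 percentage points. Ccnd1 supplied between 1.58% and 4.51% of D cyclin TPM in the 5 libraries. The summed TPM of the D cyclins was 302 and 240 in WT, against 349, 422 and 237 in dKO replicates 1, 2 and 3, so the groups overlapped.

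Cdk4 and Cdk6 are the catalytic partners of the D cyclins and carry out the first phosphorylation of Rb. Cdk4 measured 675 and 732 CPM in WT and 476, 429 and 423 CPM in dKO replicates 1, 2 and 3. All 3 dKO libraries lay below both WT libraries, and the spread within each group was small beside the gap, with group means of 704 ± 39.8 CPM (SD, n = 2) and 443 ± 29.1 CPM (SD, n = 3). The log2 fold change was -0.67 (SE 0.17, 95% interval -1.05 to -0.28), with an unadjusted p of 0.00411 and an adjusted p of 0.430 by edgeR. DESeq2 gave the same log2 fold change with an adjusted p of 0.0184, and over all 14 alternatives the log2 fold change ran from -0.73 to -0.51 with adjusted p from 0.0184 to 0.9996. In deposited TPM the groups did not overlap either, with 606 and 584 TPM in WT and 528, 505 and 271 TPM in dKO replicates 1, 2 and 3. There dKO replicate 3 lay far below the other dKO libraries, which it did not in CPM. In the reference annotation (GENCODE M21, GRCm38) Cdk4 shares 641 of its 3249 exon bases (19.7%) with Tspan31, a tetraspanin gene on the opposite strand, and the library method in its standard form does not mark strand. Tspan31 had 264 and 269 TPM in WT and 263, 225 and 211 TPM in dKO replicates 1, 2 and 3, and in CPM it too was lower in every dKO library (log2 fold change -0.38, adjusted p = 0.574 by edgeR). Its part in the Cdk4 values was not tested.

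Cdk6 showed no such gap. It measured 1257 and 961 CPM in WT and 881, 1167 and 1268 CPM in dKO replicates 1, 2 and 3, so that each group held both high and low libraries. Its log2 fold change was -0.0041 (SE 0.22) with a 95% interval of -0.52 to 0.51, and its sign changed in 6 of 14 alternatives. Cdk6 made up 45.0 ± 6.49% of the TPM of Cdk4 and Cdk6 in WT (SD, n = 2) and 56.7 ± 10.8% in dKO (SD, n = 3). The single libraries had 49.6% and 40.4% in WT, against 47.1%, 54.5% and 68.4% in dKO replicates 1, 2 and 3. The difference of 11.7 percentage points had p = 0.300 by the exact permutation test (two-sided), and it was 5.82 without dKO replicate 3 and 7.11 without WT replicate 2. The sum of both kinases was 1201 and 980 TPM in WT and 998, 1109 and 859 TPM in dKO replicates 1, 2 and 3, which overlapped.

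**Figure D3:**
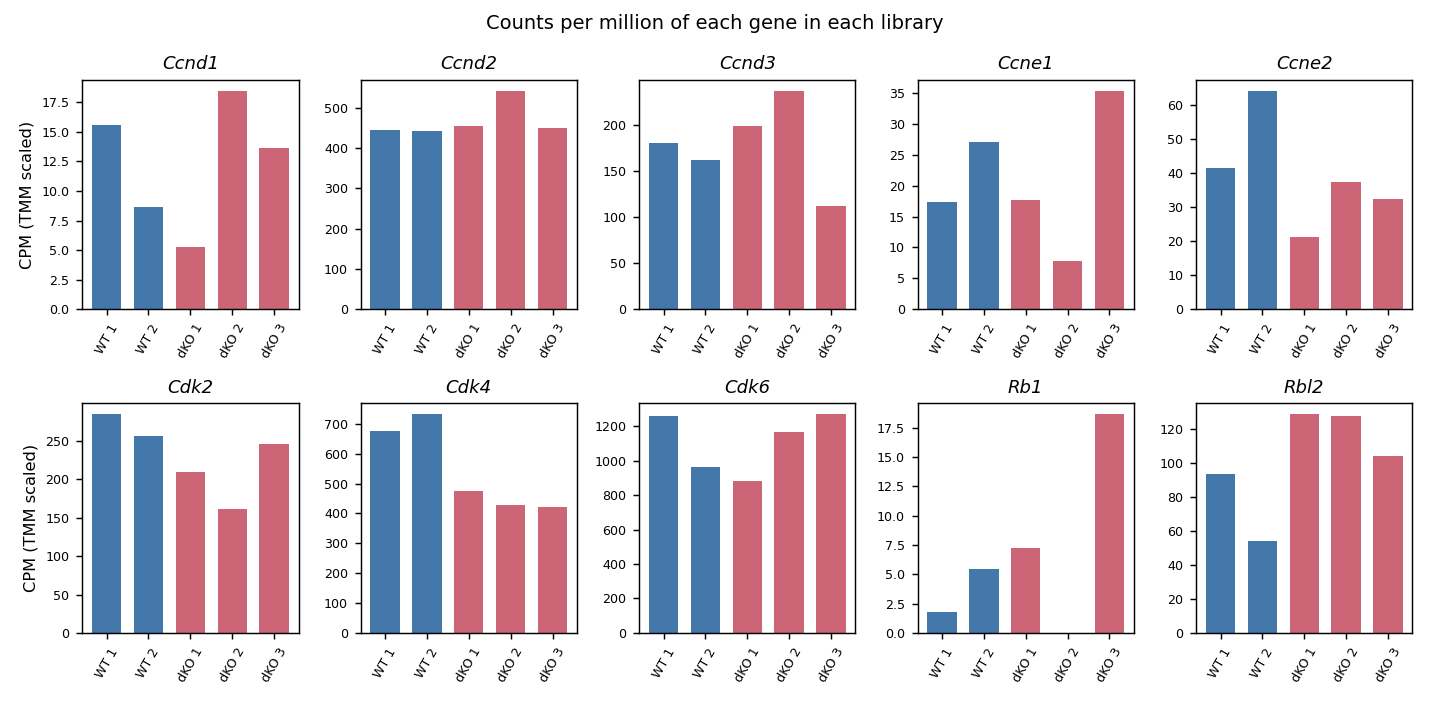
CPM (TMM scaled, each axis from 0) of the 10 genes in WT replicates 1 and 2 (blue bars) and dKO replicates 1 to 3 (red bars), 1 bar per library. Cdk4 is lower in all 3 dKO libraries, Rbl2 is higher, and Ccne1, Ccnd1 and Rb1 vary widely within the dKO group.

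Cyclin E, from Ccne1 and Ccne2, activates Cdk2 at the entry into S phase, and both cyclin genes are E2f targets. Ccne2 measured 41.5 and 64.1 CPM in WT and 21.3, 37.3 and 32.3 CPM in dKO replicates 1, 2 and 3, and the groups did not overlap. Its log2 fold change was -0.80 (SE 0.37, 95% interval -1.66 to 0.06, adjusted p = 0.523 by edgeR). Without WT replicate 2, the library rich in granulocyte progenitor transcripts, the log2 fold change was -0.46. Ccne1 was counted 455 and 676 times in WT and 481, 128 and 955 times in dKO replicates 1, 2 and 3. On the CPM scale that is 17.3 and 27.1 in WT, against 17.7, 7.74 and 35.4 in dKO, with the dKO libraries on both sides of WT and a 4.57-fold ratio between the highest and the lowest. The log2 fold change of -0.13 (SE 0.64) became 0.26 without dKO replicate 2 and 0.23 without WT replicate 2. Ccne1 made up 46.9% and 45.1% of E cyclin TPM in WT, against 61.8%, 34.8% and 69.0% in dKO replicates 1, 2 and 3 (difference of group means 9.16 percentage points, exact permutation test, two-sided, p = 0.600). Without dKO replicate 3 this difference was 2.26, without dKO replicate 1 it was 5.84 and without dKO replicate 2 it was 19.4 percentage points. The 2 WT libraries were close to each other on this share while the dKO libraries lay on both sides of them.

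Cdk2, the kinase of cyclin E and later of cyclin A, measured 285 and 257 CPM in WT and 210, 162 and 246 CPM in dKO replicates 1, 2 and 3. The dKO libraries all lay below WT, with dKO replicate 3 near it, and the log2 fold change was -0.40 (SE 0.22, 95% interval -0.91 to 0.12, adjusted p = 0.587 by edgeR). Without dKO replicate 2, the lowest library, it was -0.24. In TPM the picture differed: 208 and 81.2 TPM in WT and 88.7, 133 and 176 TPM in dKO replicates 1, 2 and 3, which overlap fully, and the log2 fold change on log2(TPM + 1) was -0.026.

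The Rb family members Rb1 and Rbl2 encode the retinoblastoma protein and p130, the latter the main pocket protein of quiescent cells. Rbl2 measured 93.1 and 53.9 CPM in WT and 128, 127 and 104 CPM in dKO replicates 1, 2 and 3. All dKO libraries lay above WT, with dKO replicate 3 nearest to WT replicate 1, and WT replicate 2 lowest. The log2 fold change was 0.71 (SE 0.29, 95% interval 0.03 to 1.38), with an unadjusted p of 0.0420 and an adjusted p of 0.486 by edgeR. Without WT replicate 2 it was 0.36 and without WT replicate 1 it was 1.15, so its size rested on the WT library used. In TPM Rbl2 stood at 26.6 and 13.5 in the WT pair and at 43.4, 42.8 and 28.9 in dKO replicates 1, 2 and 3, again without overlap between the groups. For other members too the annotation places overlapping exons: Oraov1 covers 23.4% of the Ccnd1 exon bases, Ints8 17.4% of those of Ccne2, and for Rbl2 itself Gm45464 covers 11.8% and Aktip 9.17%, each on the opposite strand, and reads of such pairs cannot be told apart without strand.

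Rb1 could not be followed reliably. Its deposited counts were 48 and 137 for the WT libraries, against 197, 0 and 503 for dKO replicates 1, 2 and 3, whereas its TPM were 9.24 and 5.56 in WT, against 12.4, 10.2 and 15.1 in dKO. The library with no count thus had a higher TPM than either WT library. By counts the groups overlapped and the log2 fold change was 1.24 (SE 1.76, adjusted p = 0.895 by edgeR). On log2(TPM + 1) it was 0.71, and in TPM the groups did not overlap. In TPM 2 members (Rb1 and Rbl2) lay wholly above and 2 (Ccne2 and Cdk4) wholly below WT, where 18.6% and 8.81% of all tested genes did so. Without dKO replicate 3 the log2 fold change of the Rb1 counts was -0.0055. Exons of Rb1 overlap those of Rcbtb2 on 488 bases (8.11%) and of Lpar6 on 408 bases (6.78%), both on the opposite strand in GENCODE M21. Rcbtb2 overlapped between the groups in TPM (46.3 and 32.1 in the WT libraries, 34.5 to 59.4 in the dKO libraries). Lpar6, with 41.0 and 24.7 TPM in the WT libraries and 51.6 to 70.4 TPM in the dKO libraries, did not. The part of these overlaps in the Rb1 values was not tested. Rbl2 made up 74.2% and 70.8% of the TPM of Rb1 and Rbl2 in WT, against 77.8%, 80.8% and 65.7% in dKO replicates 1, 2 and 3 (difference of group means 2.27 percentage points, exact permutation test, two-sided, p = 0.800), with the groups overlapping. Without dKO replicate 2 this difference was -0.75 percentage points and without dKO replicate 3 it was 6.81.

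The deposited counts and TPM of each member were set against each other to see where both readouts describe the same library in the same way. Counts per TPM were divided by the median of the gene over the 5 libraries and then by the median of each library over 11190 genes, so that 1 means a usual ratio. For Cdk6, Ccnd2, Ccnd3, Rbl2 and Ccne1 the highest library exceeded the lowest by no more than 1.11 times, against a median of 1.17 times over all genes, and for Ccne2 and Ccnd1 by 1.26 and 1.45 times. Rb1 was the extreme member, at 0.262 in WT replicate 1 and 1.62 in dKO replicate 3, a 6.17-fold range that 1.49% of genes exceeded, with dKO replicate 2 left out for want of a count. Cdk2 stood at separate levels, with 1.91 in WT replicate 2 and 1.82 in dKO replicate 1 and between 0.938 and 0.962 in the other 3 libraries. Cdk4 had 1.38 in dKO replicate 3 and between 0.841 and 1 in the other 4. Cdk4 in dKO replicate 3 was thus the lowest of the 5 libraries on both scales and lower still in TPM than in CPM, and the disagreement over Cdk2 lay in WT replicate 2 and dKO replicate 1.

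**Figure D4:**
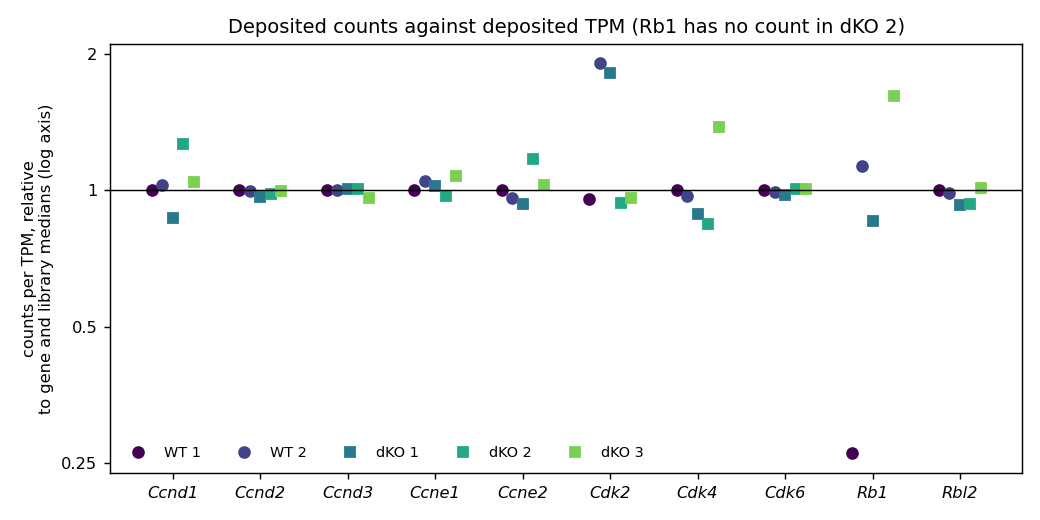
Deposited counts per deposited TPM of the 10 genes (log axis), relative to the median of each gene and of each library, with 1 point per library (circles WT, squares dKO) and no point for Rb1 in dKO replicate 2, which has 0 counts. Most points lie near 1, and those of Rb1, of Cdk2 in WT replicate 2 and dKO replicate 1, and of Cdk4 in dKO replicate 3 lie away from it.

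Promoter sequences are shown for the members with the smallest p in each direction, Cdk4 and Rbl2, and for Cdk2, the single member promoter with a match to the E2f site searched. RefSeq promoters on GRCm38.p6 were at hand for 6 of the 10 members (7 promoters, since Ccnd3 has 2), and the 250 bases before the start were searched on both strands. Promoters of Ccnd1, Ccnd2, Ccne2 and Rb1 were not analysed here. The letters searched were TTTGGCGC, TTTCGCGC, TTTCCCGC and TTTGCCGC for E2f, CACGTG for the E-box bound by Myc with Max, CTTTGAT and CTTTGTT for the TCF/LEF factors of Wnt signalling, and TTTGAA for the CHR element of cell cycle genes. No match of one motif overlapped a match of another in these promoters. Each sequence reads 5′ to 3′ towards the gene, in lower case with the matches in capitals.
Cdk4 (GRCm38.p6, chr10:127063285-127063534, plus strand): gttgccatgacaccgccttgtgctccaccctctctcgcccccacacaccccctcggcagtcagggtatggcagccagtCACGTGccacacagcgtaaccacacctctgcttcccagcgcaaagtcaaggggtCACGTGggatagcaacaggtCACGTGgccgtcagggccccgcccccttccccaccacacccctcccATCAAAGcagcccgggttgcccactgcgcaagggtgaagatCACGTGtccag
Rbl2 (GRCm38.p6, chr8:91069807-91070056, plus strand): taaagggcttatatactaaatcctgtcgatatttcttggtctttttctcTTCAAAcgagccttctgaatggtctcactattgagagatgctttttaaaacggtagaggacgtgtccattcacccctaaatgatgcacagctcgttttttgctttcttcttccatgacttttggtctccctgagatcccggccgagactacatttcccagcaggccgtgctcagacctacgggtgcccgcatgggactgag
Cdk2 (GRCm38.p6, chr10:128705052-128705301, minus strand): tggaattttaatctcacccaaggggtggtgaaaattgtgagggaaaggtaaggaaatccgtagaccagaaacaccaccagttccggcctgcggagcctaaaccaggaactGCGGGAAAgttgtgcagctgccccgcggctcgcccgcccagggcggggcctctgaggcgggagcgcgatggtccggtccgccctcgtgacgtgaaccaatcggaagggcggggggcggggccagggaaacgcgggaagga

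The Cdk4 sequence held 4 E-boxes, beginning 172, 118, 98 and 11 bases before the start, and 1 TCF match on the other strand at 52 bases. Of 32851 RefSeq promoters 6.02% (8.29% of the 11749 of tested genes) held an E-box in the same window and 7 promoters, or 0.0213%, held 4 or more. Cdk6 held 1 E-box, at 220 bases. A TCF match was present in 8.06% of promoters (5.55% of those of tested genes). Rbl2 held 1 CHR match on the other strand at 201 bases, an element present in 15.99% of promoters (10.9% of those of tested genes). The Cdk2 promoter held 1 E2f match on the other strand at 140 bases, against 1.86% of all promoters and 3.23% of those of tested genes. Ccnd3 and Ccne1 had no match to these letters in this window. Rbl2 also had the lowest share of G and C bases of the 7 promoters, 46.8%, against 59.6% to 76.0% in the other 6. These matches are descriptions of the sequence and were not related to binding, which was not measured. Myc itself, the E-box factor, measured 536 and 562 CPM in WT and 655, 608 and 488 CPM in dKO replicates 1, 2 and 3, a log2 fold change of 0.09 with an adjusted p of 0.939 by edgeR. Myc was named after its values were known, and its groups overlapped.

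Other genes of the G1 to S pathway were read from lists. Among 11 E2f and Dp genes with the Rb relative Rbl1, 6 had higher and 5 lower values in dKO, with a median log2 fold change of 0.02. Of these, 1 in each direction had an unadjusted p under 0.05, both Dp partners of E2f: Tfdp1 measured 260 and 308 CPM in WT and 178, 175 and 193 CPM in dKO replicates 1, 2 and 3. Tfdp2 measured 68.2 and 80.6 CPM in WT and 113, 160 and 105 CPM in dKO. The 2 Dp genes thus stood on opposite sides, with log2 fold changes of -0.64 and 0.76 (adjusted p = 0.434 and 0.441 by edgeR), and neither group pair overlapped. E2f4, a repressor E2f that pairs with p130 in quiescent cells, had a log2 fold change of -0.73 (adjusted p = 0.532 by edgeR).

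The inhibitors of cyclin-dependent kinases numbered 5 tested of 7, with 4 higher and 1 lower, where 52.2% of all tested genes were higher. Their median log2 fold change was 0.37 (0.24 with the replicate block, 0.70 without WT replicate 1). Cdkn2a and Cdkn2b had no count in any library. Cdkn1a, which encodes p21 and restrains Cdk2, measured 37.5 and 40.1 CPM in WT and 111, 173 and 160 CPM in dKO replicates 1, 2 and 3. That is a log2 fold change of 1.93 (SE 0.28, adjusted p = 0.247 by edgeR), the 1 inhibitor with an unadjusted p under 0.05. DESeq2, and edgeR without the filter on low counts, each called 1 of the 5 inhibitors higher. Cdkn1c (p57) had 1.97 (SE 1.06) and Cdkn2d (p19) 0.37 (SE 0.45).

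Of 10 genes that regulate kinase activation (the activating complex, Cdc25 phosphatases, Wee1-type kinases and Cks subunits) 8 had a negative value, with a median of -0.40 (-0.22 without WT replicate 2), and 1 had an unadjusted p under 0.05. That gene was Cks1b, a small subunit that binds the kinases, at 312 and 473 CPM in WT and 182, 232 and 272 CPM in dKO replicates 1, 2 and 3 (log2 fold change -0.78, adjusted p = 0.436 by edgeR). Ccnh and Cdk7, the cyclin and the kinase of the activating complex, had -0.47 and -0.48. Among 14 genes of cyclin turnover 7 were higher and 7 lower, and the 3 with an unadjusted p under 0.05 were all lower: Dtl (-0.91), a substrate adaptor, and the ligase parts Skp1a (-0.45) and Rbx1 (-0.56). The MuvB genes, whose products form the DREAM repressor with p130, and the Myb genes, whose products bind MuvB later in the cycle, had 3 of 7 higher and 4 lower with none under an unadjusted p of 0.05, and their median of -0.13 was 0.51 without WT replicate 1. Mybl2 had a log2 fold change of -0.99 (SE 0.56), Lin54 0.56 and Lin37 -0.28.

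The E2f target genes of the G1 to S transition had lower values in dKO across the list. All 32 tested targets had a negative log2 fold change, where 47.8% of all tested genes did, and the median was -0.69 against 0.04 for all tested genes. For 29 of the 32 every dKO library lay below both WT libraries, where 15.6% of all tested genes did, and 21 had an unadjusted p under 0.05, where 5.19% did. None passed the adjusted threshold in edgeR and 7 did in DESeq2. The list was drawn up with replication genes already known to be lower in these libraries, so it is no independent evidence of its direction. Rpa2, a subunit of the single-strand binding protein, measured 357 and 372 CPM in WT and 186, 198 and 237 CPM in dKO replicates 1, 2 and 3. Pcna, the sliding clamp, and Mcm4, a helicase subunit, had log2 fold changes of -0.76 and -0.77. Without WT replicate 2 the target median was -0.67 and all 32 remained negative, while 13 had an unadjusted p under 0.05. On log2(TPM + 1) the median was -0.49, with 31 of 32 lower and 8 under an unadjusted p of 0.05.

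Of 14 mitosis markers 11 were lower with a median of -0.41, and 2, Bub1 (-1.40) and Birc5 (-0.75), had an unadjusted p under 0.05. Mki67, a marker of cycling cells, measured 166 and 207 CPM in WT and 107, 131 and 156 CPM in dKO replicates 1, 2 and 3, a log2 fold change of -0.50. Without WT replicate 2 the median of the mitosis markers was 0.10, so its direction rested on that library. Without WT replicate 1, and with voom weights, all 14 were lower. Mitosis markers and E2f targets were not tested against each other. With every gene centred on its own 5-library mean, the mitosis markers averaged 0.63 log2 CPM in WT replicate 2 and between -0.46 and 0.17 in the others, whereas the E2f targets averaged 0.42 and 0.47 in WT replicates 1 and 2 and between -0.34 and -0.27 in the 3 dKO libraries. The summed levels of stem cell markers, of erythroid and megakaryocyte markers and of dendritic cell and macrophage markers given above also separated the groups. Most of the tested mast cell, lymphoid and stromal markers were singly higher in dKO. The part of all these markers in the values of Cdk4, Rbl2 and the E2f targets was not tested.

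**Figure D5:**
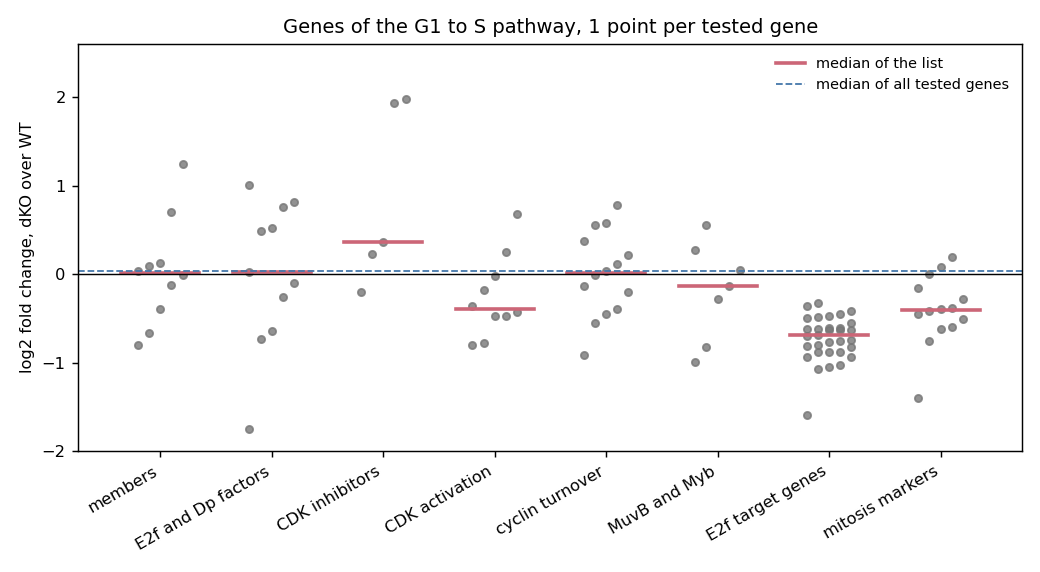
Log2 fold change of dKO over WT for each tested gene of the members and of 7 lists of the G1 to S pathway (points), with the median of each list (red) and that of all 13696 tested genes (dashed blue). All 32 E2f targets lie below 0, while the members and the E2f and Dp factors spread to both sides.

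The genes whose profile over the 5 libraries was most like that of Cdk4 and of Rbl2 were sought among the other genes with a mean log2 CPM of at least 5, by the Euclidean distance between mean-centred log2 CPM. Nearest to Cdk4 were Orc4, an origin recognition subunit (distance 0.0958), Qdpr, a pteridine reductase (0.101), and the translation initiation subunit Eif3i (0.112), against a median distance of 0.895 over 5640 genes. Nearest to Rbl2 were the anchoring protein gene Akap13 (0.204), the transcription factor gene Runx2 (0.205) and the exocyst gene Exoc6b (0.207), against a median of 1.31. Of the members, Cdk2 came closest to Cdk4, at a distance of 0.560 and rank 1169, and Ccnd2 came closest to Rbl2, at 0.914 and rank 1050. Cdk4 and Rbl2 themselves were 1.69 apart. With 5 libraries in 2 groups, such likeness is a description of these libraries.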

How the data were processed

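RNA from 6K sorted cells per sample was made into Smart-seq2 libraries, per the labels' protocols. The authors deposited raw counts per gene and, separately, TPM. The tools named in the submitters' processing notes are HTSeq, RSEM 1.2.31, TopHat2 2.1.1, Trimmomatic, FastQC 0.11.5 and DESeq2, with build mm9. Their roles, parameters and strand setting were not given in the sources used here. Entries without a gene name, 30 of 33924, held 0.216% to 0.269% of counts and were left out. Library sizes were scaled by TMM, genes filtered with filterByExpr, and robust quasi-likelihood fits made on all 5 samples without covariates (edgeR 4.0.16, R 4.3.3), with Benjamini-Hochberg adjustment over 13696 genes and a threshold of 0.05. The edgeR test was run on 5 simulated data sets with 200 changed genes each. It recovered 3.4% of 2-fold and 34.4% of 4-fold changes, and 12.1% of its calls were false. Shares were tested by exact permutation. Members and lists were chosen with earlier results of these data known. From each pathway list the 3 genes with the smallest p are named. Replicates differed far beyond sampling noise (chi-square per degree of freedom 99.6 to 162). Alternatives used DESeq2 1.42.0, limma 3.58.1 (voom, and deposited TPM on a log2 scale with a pseudocount of 1 or 0.1), other scalings and filters, a replicate block and single libraries left out.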

Additional observations from a re-analysis of the deposited data

How the results depend on the processing

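The log2 fold changes of Ccnd2, Ccne2, Cdk2, Cdk4 and Rbl2 kept their sign in all 14 alternatives, and Cdk4 was called in 1 of them (DESeq2). Genes called higher and lower over all genes, 0 and 0 in edgeR, numbered 162 and 92 in DESeq2 (1 member), 5 and 3 without a filter, 3 and 2 on log2(TPM + 1), 2 and 0 on log2(TPM + 0.1), and 1 and 0 with the replicate number as a block. With 1 library left out they ranged from 0 to 2 in each direction, and where WT kept 1 library that sample was assumed to vary like the others. The same-numbered libraries share only a number (correlation of deviations 0.0325 and 0.0458), and the block reversed Ccnd1 (-0.23) and Rb1 (-2.04). Signs also reversed for Ccnd1 with voom (-0.46) and without WT replicate 2 (-0.32), dKO replicate 2 (-0.36) or dKO replicate 3 (-0.03), for Ccnd3 with voom (-0.031) and without dKO replicate 2 (-0.13), for Ccne1 without WT replicate 2 (0.23) or dKO replicate 2 (0.26), and for Rb1 without dKO replicate 3 (-0.0055). Cdk6 reversed with upper-quartile scaling (0.0079), the 5 CPM filter (0.021), log2(TPM + 1) and log2(TPM + 0.1) (0.18 each), without WT replicate 1 (0.20) and without dKO replicate 1 (0.13). With 1 library left out the log2 fold change ranged from -0.36 to 0.52 for Ccnd1, -0.13 to 0.35 for Ccnd3, -0.80 to 0.26 for Ccne1, -0.19 to 0.20 for Cdk6, -0.0055 to 2.24 for Rb1, -0.54 to -0.24 for Cdk2 and 0.035 to 0.17 for Ccnd2. The Ccnd2 share reversed without dKO replicate 3 (-1.83 percentage points; range with 1 library left out -1.83 to 3.83), and the Rbl2 share in CPM (-1.26) and without dKO replicate 2 (-0.75; range -0.75 to 6.81). The Cdk6 and Ccne1 share differences ranged from 5.82 to 16.5 and from 2.26 to 19.4 percentage points with 1 library left out. The cause of these reversals was not tested. Every member but Rb1 had at least 128 counts in each library.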
